A study of Mus musculus with 2 samples.

Results

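The 8 genes described here, of 32285 measured, encode the IL-23 receptor chain Il23r, the transcription factors Rora and Ahr, the cytokines Il17a, Il17f and Il22, the chemokine receptor Ccr6 and the cytokine receptor chain Il17re. They were taken by symbol from both count matrices, and all 8 have a row in each. Cells came from the central nervous system of C57BL/6 mice with EAE (experimental autoimmune encephalomyelitis, in which T cells against myelin cause inflammation as in multiple sclerosis), induced with MOG peptide in complete Freund's adjuvant and pertussis toxin, on day 15. One pool of WT mice and one pool of Stat4fl/flCD11cCre mice each gave 1 single-cell 3′ RNA library. In the second strain a Cre recombinase under the CD11c promoter acts on a floxed Stat4, a factor that carries IL-12 signals and is 1 of those that carry IL-23 signals. Which Stat4 exons are floxed is not given in the sources used here, and CD11c is also found on some lymphocytes, microglia and macrophages. Mononuclear cells were sorted as MHCII+ CD11c+, a gate for antigen-presenting cells. T and NK cells were nevertheless present in both libraries; how they came through the sort was not tested, and their numbers are not those of the tissue.

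The libraries held 13298 WT and 12305 Stat4fl/flCD11cCre cells, with medians of 6440.5 and 6878 UMIs (unique molecular identifiers, each a counted RNA molecule). With 1 library per genotype, differences could not be set against replicates or tested for a p-value, and the 95% intervals express counting error alone. The libraries shared 43 cell barcodes, 0.311% of those in WT. Lymphocyte gates were set by marker genes: CD4 T cells (CD3 genes and Cd4 without Foxp3; 869 WT and 466 Stat4fl/flCD11cCre cells), regulatory T cells (Foxp3; 174 and 94), CD8 T cells (Cd8b1; 539 and 181), gamma-delta T cells (Trdc; 74 and 67) and NK cells (NK receptors without CD3; 327 and 234). A further 665 and 303 T cells met none of these definitions and are called unresolved. Barcodes of the T and NK gates with more than 2 UMIs of myeloid, neutrophil, B cell or plasmacytoid DC genes were set aside as mixed (825 and 396). Several markers that the gates did not use followed the names: Cd40lg was found in 52.6% and 56.0% of CD4 cells against 3.71% and 7.18% of CD8 cells, and Ikzf2 in 90.8% and 92.6% of regulatory T cells. Tcrg-C1 was found in 64.9% and 67.2% of gamma-delta cells. Prf1 was found in 62.4% and 76.9% of NK cells against 32.1% and 43.6% of CD8 cells. Others were less specific. In gamma-delta cells Ikzf2 was found in 64.9% and 61.2%. The alpha and beta chain genes Trac and Trbc2 were found there in 27.0% and 31.3% and in 95.9% and 89.6%. Median depths were 5173 and 6316 UMIs in the CD4 gate and 4369 and 5502 in the gamma-delta gate, in WT and Stat4fl/flCD11cCre, and the gate totals behind the levels were 5638165 and 3670500 UMIs for CD4 and 375098 and 460829 for gamma-delta cells.

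IL-23 is made by myeloid cells and is read by a receptor that pairs Il23r with Il12rb1, a chain also used for IL-12. In T helper 17 (Th17) cells and in a class of gamma-delta T cells the nuclear receptor Rora promotes Il17a and Il17f, and IL-23 signalling sustains these cells; in EAE both kinds of cell reach the central nervous system. Ahr is a ligand-activated factor that promotes Il22, Ccr6 directs cells to the chemokine Ccl20, and Il17re is the chain that binds IL-17C.

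Rora binds the core letters AGGTCA. The 250 bases before the RefSeq start site (GRCm38.p6) were searched for them on both strands in the 7 of 8 genes that matched an entry of the RefSeq promoter table. The core was found in 4 of the 7, Il23r, Il17a, Il17f and Ccr6, and in 15.8% of all 27025 genes with such windows. These 4 windows are shown because they belong to the receptor, the paired cytokines and the chemokine receptor described below; capitals mark the core, as AGGTCA or, on the other strand, TGACCT.
Il23r chr6:67491856-67492105, minus strand: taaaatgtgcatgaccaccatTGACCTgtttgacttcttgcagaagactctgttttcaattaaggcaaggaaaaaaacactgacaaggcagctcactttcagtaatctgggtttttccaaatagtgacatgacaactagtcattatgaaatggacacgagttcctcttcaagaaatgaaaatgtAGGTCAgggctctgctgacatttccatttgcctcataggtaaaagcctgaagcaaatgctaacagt
Il17a chr1:20730655-20730904, plus strand: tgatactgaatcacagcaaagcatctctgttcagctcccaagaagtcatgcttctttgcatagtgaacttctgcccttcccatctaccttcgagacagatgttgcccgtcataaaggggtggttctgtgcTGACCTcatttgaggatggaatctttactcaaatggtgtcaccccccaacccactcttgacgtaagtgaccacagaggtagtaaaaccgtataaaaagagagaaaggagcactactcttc
Il17f chr1:20784271-20784520, minus strand: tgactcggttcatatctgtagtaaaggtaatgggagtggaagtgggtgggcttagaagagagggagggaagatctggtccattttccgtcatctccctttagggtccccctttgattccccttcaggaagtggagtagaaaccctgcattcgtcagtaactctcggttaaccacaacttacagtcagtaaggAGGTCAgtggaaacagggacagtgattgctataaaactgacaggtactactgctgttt
Ccr6 chr17:8235793-8236042, plus strand: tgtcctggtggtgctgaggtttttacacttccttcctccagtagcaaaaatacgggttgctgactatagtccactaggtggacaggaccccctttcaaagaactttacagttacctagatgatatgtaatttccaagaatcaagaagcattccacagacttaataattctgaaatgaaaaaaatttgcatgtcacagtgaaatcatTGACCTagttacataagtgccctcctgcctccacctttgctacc
Counting the base before the start site as -1, the core began at -229 and -66 in Il23r, at -120 in Il17a, at -58 in Il17f and at -44 in Ccr6. A second Ccr6 window in the table, and those of Rora, Il22 and Il17re, did not hold these letters. The STAT motif TTCNNNGAA was found only in the first Ccr6 window among the 7 genes, at -157 and -120, against 8.13% of all genes. The AP-1 motif TGANTCA was found only in the Il17a window, at -244, against 7.82% of all genes. None of these matches overlapped another. They describe letters in these windows and say nothing of binding in the cells sampled.

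Il23r (ENSMUSG00000049093, chr6:67422932-67491855, minus strand, GRCm38) was highest in gamma-delta T cells. Its level there was 331 CPM (UMIs of the gene scaled to the gate's total; 275 to 394) for WT and 152 (118 to 192) for Stat4fl/flCD11cCre. In the unresolved T cells it was 32.9 (27.3 to 39.2) and 64.9 (54.2 to 77.0), and in CD4 cells 26.6 (22.5 to 31.2) and 38.7 (32.6 to 45.6). The gamma-delta gate thus stood above the CD4, regulatory T, CD8, NK and unresolved T gates in both libraries, with intervals that did not overlap theirs. A remainder of 11 WT and 4 Stat4fl/flCD11cCre innate lymphoid barcodes (Il7r and Thy1 without CD3 or NK genes) held 1 and 0 Il23r UMIs, too few to place in that order. Regulatory T cells had 19.1 (12.5 to 28.0) and 20.7 (12.3 to 32.8) CPM of Il23r, and CD8 cells 6.74 (4.22 to 10.2) and 7.47 (3.58 to 13.7). The intervals of CD4 and regulatory T cells overlapped in both libraries, so those neighbours in the order could not be separated. NK cells held 1 and 2 Il23r UMIs in all.

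After each cell was thinned to 2500 UMIs, which evens out depth, Il23r was found in 40.8% (29.3 to 53.2; unthinned 50%) of WT and 27.3% (17.0 to 39.6; unthinned 38.8%) of Stat4fl/flCD11cCre gamma-delta cells. The share in CD4 cells was 4.99% (3.61 to 6.71; unthinned 9.44%) and 8.93% (6.49 to 11.9; unthinned 16.5%). In microglia, which should lack the gene and stand for free RNA, it was 0.0213% and 0.033% (unthinned 0.16% and 0.0796%) at median depths of 6804.5 and 5908 UMIs. The shares in the T cell gates were therefore far above that background, while the NK shares of 0.35% and 0.457% rested on 1 cell each. The microglia gate admits only barcodes without a CD3 gene UMI, which leaves out some that took up T cell RNA. Its shares can therefore understate the free RNA of a T cell gene. Among conventional DCs 0 of 272 WT cells had Il23r after thinning, as did 0 of 278 from Stat4fl/flCD11cCre, which allows up to 1.10% and 1.08% of cells with a UMI at that depth and sets no limit on cells expressing the gene; unthinned, 0 of 275 and 2 of 281 (0.712%) held one. Of all Il23r UMIs in the kept cells, 77.7% in WT and 79.0% in Stat4fl/flCD11cCre lay in the T and NK gates, and 19.1% and 17.2% in the mixed barcodes.

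**Figure D1:**
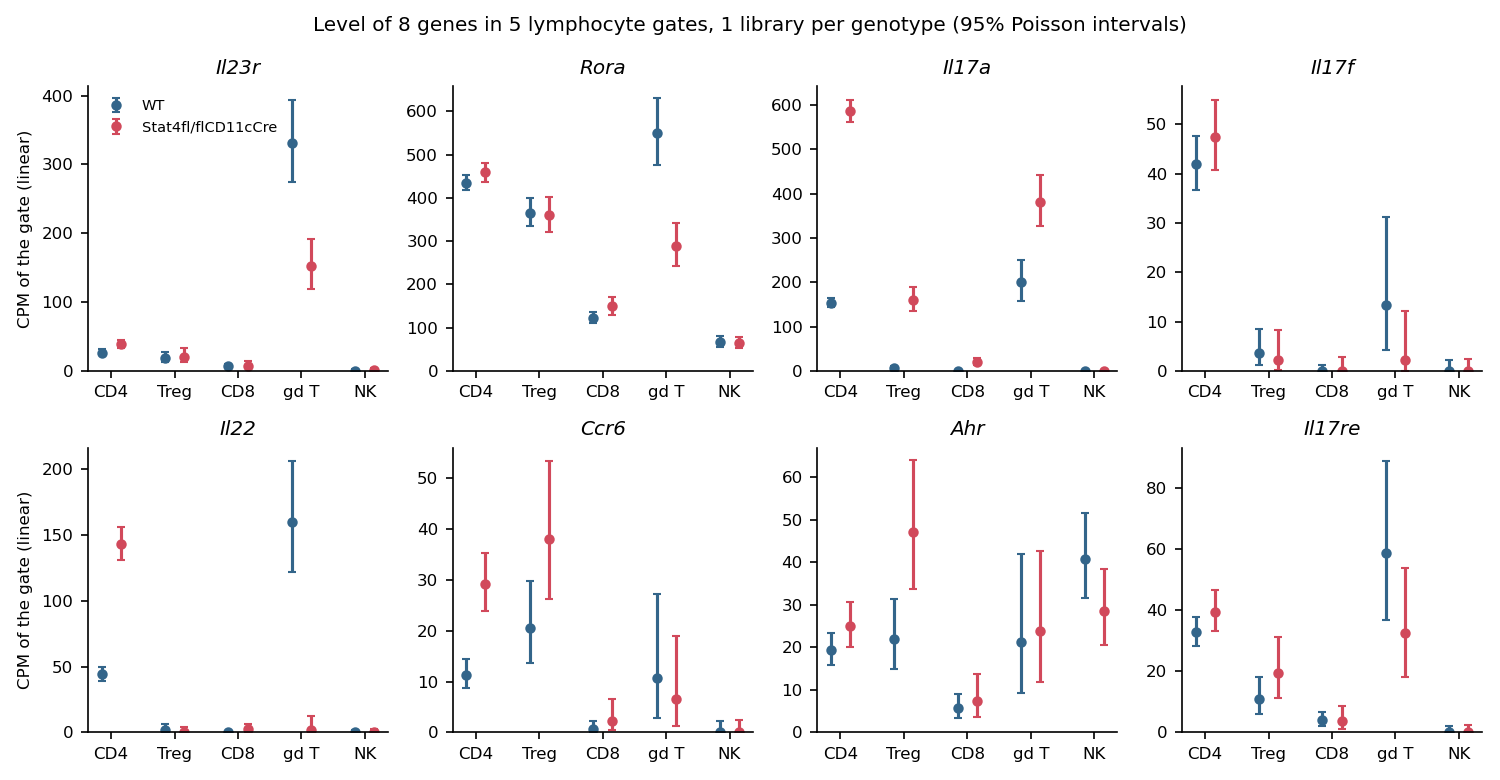
Level (CPM of the gate, linear axes that differ between panels) of the 8 genes in 5 lymphocyte gates, as points with 95% Poisson intervals, blue for WT and red for Stat4fl/flCD11cCre, 1 library each. Treg stands for regulatory T cells and gd T for gamma-delta T cells. Il23r is highest in gamma-delta cells, Rora is present in all gates, and the 3 cytokines are at 0 in NK cells.

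Between the libraries, a gene was called higher or lower when its ratio reached 1.5-fold and it had 20 or more UMIs over both. In gamma-delta cells Il23r was lower in Stat4fl/flCD11cCre, with a log2 ratio of -1.12 (-1.57 to -0.69) and 37 of 74 against 26 of 67 cells with a UMI. In CD4 cells the log2 ratio was 0.54 (0.20 to 0.88), short of the threshold; with the cell holding most Il23r left out of each library it was 0.63, past it, and over the alternatives it ranged from 0.35 to 0.70. The Il23r ratio was 0.12 (-0.83 to 1.04) in regulatory T cells and 0.15 (-1.09 to 1.29) in CD8 cells, with intervals that span 0.

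Rora (ENSMUSG00000032238, chr9:68653786-69388246, plus strand), the nuclear receptor of the group, was found in all 5 gates. Its level was 434 CPM (417 to 452) for WT and 459 (437 to 482) for Stat4fl/flCD11cCre CD4 cells, and 366 (334 to 399) and 360 (321 to 402) in regulatory T cells. In CD8 cells it was 123 (111 to 135) and 149 (129 to 172), and in NK cells 66.4 (54.7 to 80.0) and 65.1 (52.7 to 79.5). CD4, regulatory T, CD8 and NK cells thus followed each other in that order in both libraries without overlap of intervals. The gamma-delta level was 549 (477 to 630) in WT, above that in CD4 cells, and 289 (242 to 342) in Stat4fl/flCD11cCre, below it. Rora was lower there in Stat4fl/flCD11cCre (log2 -0.93, -1.25 to -0.61), and none of the other 4 lymphocyte gates reached the threshold; with each cell weighted equally the gamma-delta ratio was -0.55, short of the threshold. The thinned share of Rora was 56.3% and 40.9% of gamma-delta cells (unthinned 70.3% and 58.2%) and 59.0% and 57.3% of CD4 cells (unthinned 77.1% and 82.0%). Microglia gave 2.79% and 3.23%. The gene Gm15511 lies antisense to Rora, and whether counting used strand is not given in the sources used here.

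Il17a (ENSMUSG00000025929, chr1:20730905-20734496, plus strand), the defining Th17 cytokine, was found in 67 of the 869 WT CD4 cells and in 61 of the 466 from Stat4fl/flCD11cCre. Its level was 154 CPM (144 to 165) for WT and 587 (562 to 612) for Stat4fl/flCD11cCre, for a log2 ratio of 1.93 (1.81 to 2.04). A few cells held most of these molecules: the 16 WT and 29 Stat4fl/flCD11cCre cells with 10 or more UMIs held 83.7% and 95.9% of them. The richest WT cell held 311 UMIs, and the richest Stat4fl/flCD11cCre cell 988, which was 11.1% of all RNA molecules counted in it. Without these cells the level was 99.0 and 317 CPM and the log2 ratio 1.68, so Il17a stayed above the threshold. The median among cells with a UMI was 3 in WT and 8 in Stat4fl/flCD11cCre. The thinned share was 4.99% (3.61 to 6.71; unthinned 7.71%) and 10.0% (7.43 to 13.1; unthinned 13.1%), against 0.064% and 0.033% of microglia.

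**Figure D2:**
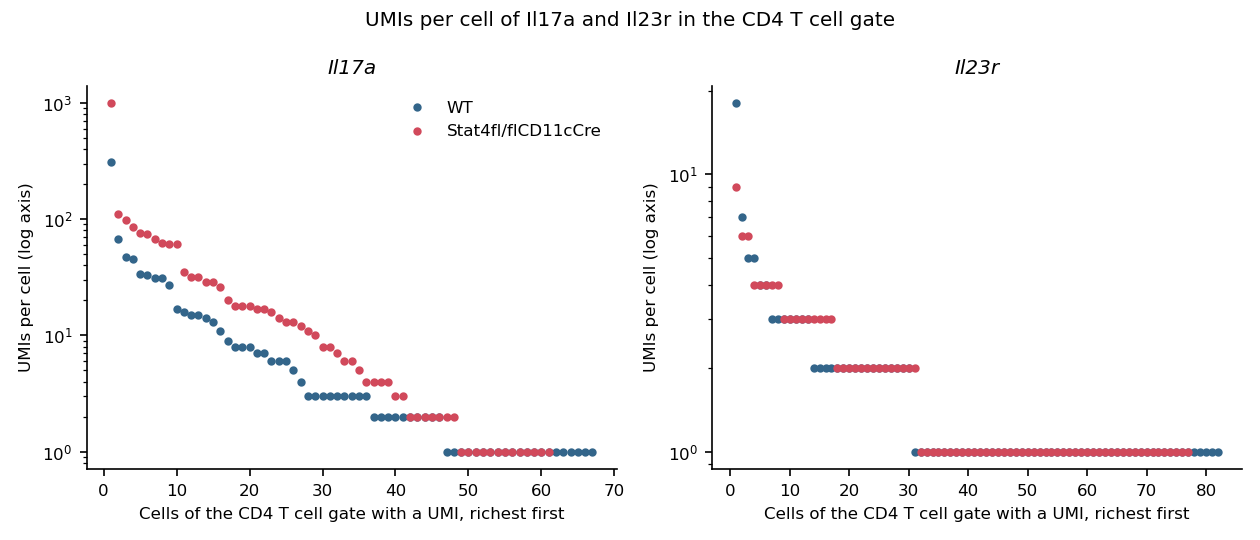
UMIs per cell (log axis) of Il17a and Il23r in cells of the CD4 gate that hold the gene, ordered from the richest, blue for WT and red for Stat4fl/flCD11cCre. The richest Il17a cells hold 311 and 988 UMIs, while no Il23r count exceeds 18.

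In gamma-delta cells Il17a was 200 CPM (157 to 251) in WT, from 15 cells, and 382 (328 to 443) in Stat4fl/flCD11cCre, from 21 cells. The log2 ratio was 0.93 (0.54 to 1.34), called higher, and the richest cells held 21 and 29 UMIs, so no single cell carried the level. With gamma-delta cells defined by 1 UMI of Trdc in place of 2, the ratio was 0.42 and no longer past the threshold. The thinned shares of 16.9% (9.05 to 27.7) and 22.7% (13.3 to 34.7), unthinned 20.3% and 31.3%, overlapped. In the gamma-delta gate Il23r and Rora were thus lower in Stat4fl/flCD11cCre while Il17a was higher. In regulatory T cells Il17a went from 5.87 CPM (2.54 to 11.6) to 160 (135 to 189), called higher, but 135 of the 139 Stat4fl/flCD11cCre UMIs lay in 1 cell. CD8 cells held 2 Il17a UMIs in WT and 27 in Stat4fl/flCD11cCre, in 2 and 5 cells (log2 5.04, 3.05 to 8.16). NK cells held 0 Il17a UMIs, thinned or not, which at the thinned depth allows a UMI in up to 1.05% of 286 WT and 1.37% of 219 Stat4fl/flCD11cCre cells.

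Il17f (ENSMUSG00000041872, chr1:20777146-20790617, minus strand) ends 42650 bases from Il17a and encodes its partner in the IL-17A/F dimer. Its RefSeq window shown above lies inside that interval because the RefSeq and GENCODE starts differ. In CD4 cells Il17f was 41.9 CPM (36.7 to 47.6) in WT, from 16 cells, and 47.4 (40.6 to 55.0) in Stat4fl/flCD11cCre, from 11 cells (log2 0.18, -0.11 to 0.47). A single cell held 56.4% of the WT and 82.8% of the Stat4fl/flCD11cCre molecules, and without them the log2 ratio was -1.16, a call of lower. The richest Il17f cell of each library was also its richest Il17a cell. Gamma-delta cells held 5 and 1 Il17f UMIs, regulatory T cells 5 and 2, and CD8 and NK cells 0.

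Il22 (ENSMUSG00000074695, chr10:118204942-118210047, plus strand), an IL-10 family cytokine that acts on epithelium, was found in 19 WT and 14 Stat4fl/flCD11cCre CD4 cells. Its CD4 level was 44.0 CPM (38.7 to 49.8) for WT and 143 (131 to 156) for Stat4fl/flCD11cCre (log2 1.70, 1.48 to 1.92), with 112 and 262 UMIs in the richest cell and a log2 ratio of 1.57 without it. The next richest CD4 cell held 44 UMIs in WT and 206 in Stat4fl/flCD11cCre. Without the richest cell, the Stat4fl/flCD11cCre level thus still rested largely on that next cell, and the ratio without both was not computed. The thinned share was 1.71% (0.935 to 2.84; unthinned 2.19%) and 1.96% (0.90 to 3.69; unthinned 3%), so the share of cells with Il22 overlapped while its level was higher. In gamma-delta cells all 60 WT molecules of Il22 lay in 1 cell, which also held 5 UMIs of Il23r and none of Il17a, and Stat4fl/flCD11cCre had 1 molecule (log2 -6.20, -11.5 to -3.67). Regulatory T cells held 3 and 0 Il22 UMIs, CD8 cells 0 and 3, and NK cells 0.

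Ccr6 (ENSMUSG00000040899, chr17:8236043-8257141, plus strand) was spread over many cells with few molecules each. In CD4 cells it was 11.4 CPM (8.74 to 14.5) in WT, from 36 cells, and 29.2 (23.9 to 35.2) in Stat4fl/flCD11cCre, from 47 cells, and was called higher (log2 1.36, 0.90 to 1.83). In regulatory T cells it was 20.6 (13.7 to 29.7) and 38.0 (26.1 to 53.3), also called higher (log2 0.89, 0.12 to 1.67). No cell held over 9 Ccr6 UMIs in either gate, so these levels did not rest on 1 cell. The thinned shares were 2.44% (1.49 to 3.74) and 3.49% (2.01 to 5.60) in CD4 cells (unthinned 4.14% and 10.1%), and 7.32% and 6.74% in regulatory T cells (unthinned 13.2% and 20.2%), with overlapping intervals. Gamma-delta cells held 4 and 3 Ccr6 UMIs, CD8 cells 2 and 3, and NK cells 0.

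Unlike those of the other receptors, most Ccr6 UMIs lay outside lymphocytes: the microglia gate of WT held 56.3% of them and that of Stat4fl/flCD11cCre 63.6%. That gate also held 54891515 of the 122975017 gene UMIs of WT and 60772494 of the 120221740 of Stat4fl/flCD11cCre. Over all kept cells Ccr6 was 5.03 and 6.53 CPM, below its levels in CD4 and regulatory T cells. The thinned share of Ccr6 in microglia was 1.88% (1.51 to 2.31, unthinned 4.59%) and 2.18% (1.83 to 2.58, unthinned 5.37%). The macrophage or monocyte gate gave 0 of 2171 and 0 of 1749 cells and the neutrophil gate 0 of 537 and 0 of 924, so the microglial share was above those of these gates at equal depth. Plasmacytoid DCs, at 1.42% (0.172 to 5.03) and 0.592% (0.015 to 3.25), overlapped microglia in both libraries, and conventional DCs, at 0.368% (0.00931 to 2.03) and 0 of 278, did so in WT. Cells with 10 or more microglia marker UMIs (Tmem119, P2ry12, Sall1, Sparc) had Ccr6 in 2.36% (1.64 to 3.29) for WT and 2.61% (2.13 to 3.17) for Stat4fl/flCD11cCre, and those with fewer in 1.66% (1.25 to 2.16) and 1.45% (1.00 to 2.03). The B cell genes Cd79a or Ms4a1 were found in 14.4% of microglia-gate cells with Ccr6 and 3.49% of those without in WT, and in 6.82% and 1.18% in Stat4fl/flCD11cCre, unthinned. The part of B cell RNA in the microglial Ccr6 was not tested. B cells, a known site of Ccr6, had it in 11.7% (5.49 to 21) of 77 WT and 1.49% (0.0378 to 8.04) of 67 Stat4fl/flCD11cCre cells.

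Ahr (ENSMUSG00000019256, chr12:35497974-35535038, minus strand; overlapped by Gm48236) also lay mostly outside lymphocytes. The lymphocyte gates held 12.3% and 10.2% of its UMIs with the unresolved T cells included. Over all kept cells Ahr was 21.02 CPM in WT and 20.82 in Stat4fl/flCD11cCre, inside the intervals of its CD4 levels given below. These percentages thus do not show Ahr to be scarcer in lymphocytes than in other cells. Conventional DCs had the highest thinned share, at 14.7% (10.7 to 19.5; unthinned 42.9%) and 16.2% (12.1 to 21.1; unthinned 45.2%). Among lymphocytes the share was 7.69% and 6.85% in NK cells (unthinned 14.4% and 13.7%) and 3.65% and 5.45% in CD4 cells (unthinned 9.90% and 13.9%). Regulatory T cells had 4.88% (2.13 to 9.39) and 8.99% (3.96 to 16.9), unthinned 12.6% and 23.4%, with overlapping intervals. Gamma-delta cells had 2.82% (0.343 to 9.81) and 9.09% (3.41 to 18.7), unthinned 8.11% and 13.4%. CD8 cells had 0.971% and 2.26%. The Ahr level was 40.7 CPM (31.6 to 51.6) and 28.5 (20.5 to 38.5) in NK cells, 19.3 (15.9 to 23.3) and 25.1 (20.2 to 30.7) in CD4 cells, and 5.82 (3.5 to 9.08) and 7.47 (3.58 to 13.7) in CD8 cells. Regulatory T cells went from 22.0 (14.9 to 31.4) to 47.2 (33.9 to 64.0), the only one of the 5 lymphocyte gates in which Ahr was called (log2 1.10, 0.39 to 1.83). That call was lost with barcodes holding any other-lineage UMI left out (log2 0.44) and with all such barcodes kept (0.57). Myeloid markers differed between the libraries in this gate as given below, and their part in the Ahr call was not tested. Outside lymphocytes, plasmacytoid DCs passed 1.5-fold with an interval that spans 0 (log2 0.66, -0.25 to 1.63). In gamma-delta cells Ahr had 8 and 11 UMIs, too few for a call.

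Il17re (ENSMUSG00000043088, chr6:113458484-113470758, plus strand) was found in T cells and in no NK cell. Its level was 58.7 CPM (36.8 to 88.8) and 32.6 (18.2 to 53.7) in gamma-delta cells and 32.8 (28.3 to 37.9) and 39.5 (33.3 to 46.5) in CD4 cells. It was 11 (6.16 to 18.2) and 19.6 (11.4 to 31.3) in regulatory T cells and 3.98 (2.12 to 6.81) and 3.74 (1.21 to 8.72) in CD8 cells. The ratio passed 1.5-fold downwards in gamma-delta cells (log2 -0.85, -1.90 to 0.16) and upwards in regulatory T cells (log2 0.83, -0.26 to 1.93), but both intervals span 0. In CD4 cells it was 0.27 (-0.06 to 0.59). The thinned share was 18.3% (10.1 to 29.3) and 6.06% (1.68 to 14.8) of gamma-delta cells, unthinned 21.6% and 16.4%, and 7.19% and 8.5% of CD4 cells, unthinned 15.5% and 22.3%.

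**Figure D3:**
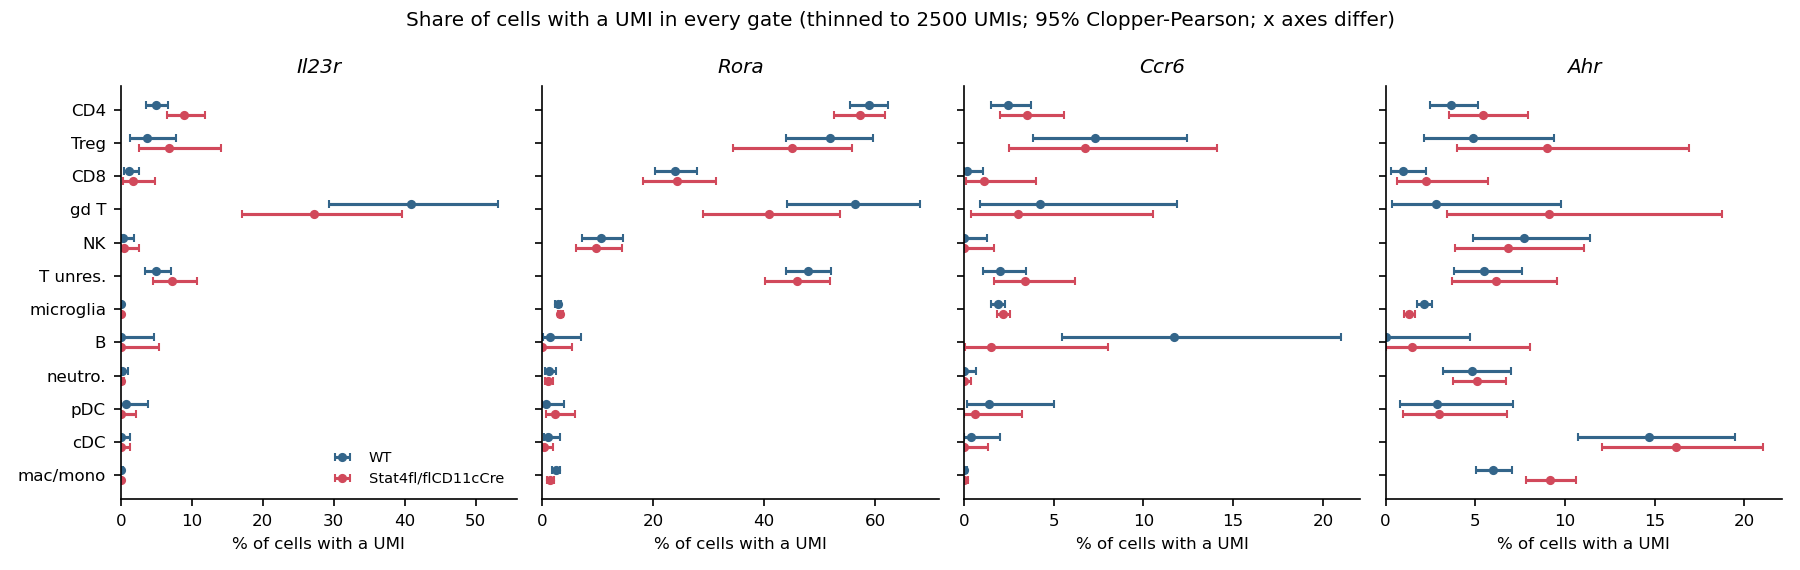
Share of cells with a UMI of Il23r, Rora, Ccr6 and Ahr in 12 gates after thinning to 2500 UMIs, as points with 95% Clopper-Pearson intervals, blue for WT and red for Stat4fl/flCD11cCre (x axes differ). Il23r and Rora follow the T cell gates, Ccr6 also reaches 1.88% and 2.18% of microglia, and Ahr is highest in conventional DCs.

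Set against all genes, 3 of the 8 members (Il17a, Il22, Ccr6) were called higher and 0 lower in Stat4fl/flCD11cCre CD4 cells, where 4.89% of 10918 genes were called higher and 6.2% lower. The members' median log2 ratio was 0.46, beside -0.00 over all genes. In regulatory T cells 4 of 6 measured members were higher and 0 lower, beside 6.71% and 10.4% of 8360 genes, with medians of 0.86 and -0.03. In CD8 cells 1 of 4 was higher and 0 lower (8.79% and 7.02% of 9391 genes; medians 0.32 and 0.05). In gamma-delta cells 1 of 5 was higher and 4 lower (14.1% and 11.0% of 5303 genes; medians -0.93 and 0.04). In NK cells 0 of 2 were called in either direction (7.79% and 6.01% of 8858 genes; medians -0.27 and 0.06). Not all of these calls weigh the same. In CD4 cells most Il22 molecules of Stat4fl/flCD11cCre lay in the cells with 262 and 206 UMIs. In regulatory T cells Il17a rested on 1 cell and the interval of Il17re spans 0, which leaves Ccr6 and Ahr. In gamma-delta cells Il22 lay in 1 WT cell and the interval of Il17re spans 0, which leaves Il23r and Rora lower and Il17a higher. Of these, the calls of Ahr in regulatory T cells and of Rora and Il17a in gamma-delta cells were each lost under an alternative given above. The thinned shares of Ccr6 overlapped between the libraries in CD4 cells and in regulatory T cells. At 2-fold the regulatory T calls were 2, Il17a and Ahr, and the gamma-delta calls 2 lower, Il23r and Il22. Members with under 20 UMIs in a gate are not in these counts.

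**Figure D4:**
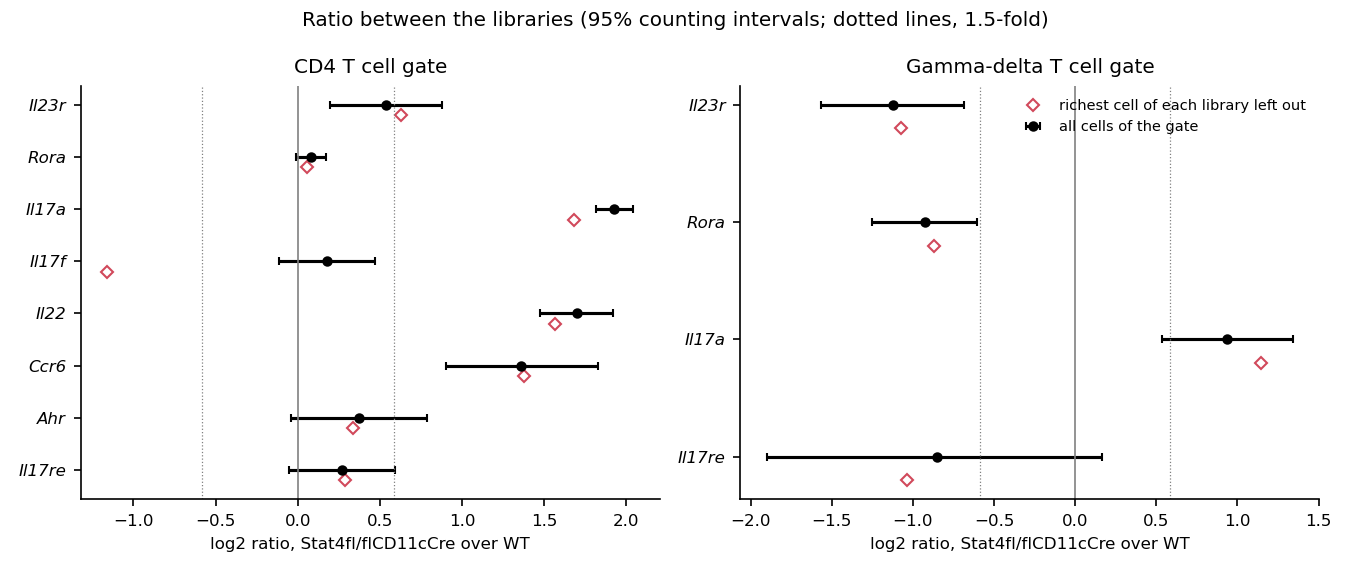
Log2 ratio of Stat4fl/flCD11cCre over WT for members with 20 or more UMIs in the CD4 (left) and gamma-delta (right) gates, as black points with 95% counting intervals, and with the richest cell of each library left out as red diamonds; dotted lines mark 1.5-fold and the x axes differ. Leaving out the richest cells moves Il17f in CD4 cells from 0.18 to -1.16 and the other drawn values by less; Il22 in gamma-delta cells, which lay in 1 WT cell, is not drawn.

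Markers of other cells moved with some of these gates. The neutrophil genes S100a8, S100a9 and Retnlg summed to 14244 CPM in WT and 241 in Stat4fl/flCD11cCre gamma-delta cells, and to 73.5 and 3394 in CD8 cells; in CD4 cells they were 1064 and 1535, and in regulatory T cells 58.7 and 599.7. In regulatory T cells 7 myeloid genes (C1qa, C1qb, C1qc, Lyz2, Apoe, Cst3, Csf1r) summed to 1521 CPM in WT and 2989 in Stat4fl/flCD11cCre; Cst3 went from 510.1 to 2291 CPM while the other 6 were lower, Lyz2 from 769 to 517. With cells that held over 1% of such markers left out, the Ahr log2 ratio there was 0.61 and that of Ccr6 1.00. With cells that held over 1% of such markers left out, the gamma-delta log2 ratios were -1.22 for Il23r, -1.03 for Rora and 0.87 for Il17a, as large or nearly so. The NK genes Ncr1 and Prf1 were found in 6.76% and 5.41% of WT and in 19.4% and 14.9% of Stat4fl/flCD11cCre gamma-delta cells, unthinned, and Trdc in 16.5% and 20.1% of NK cells. The part of these NK genes in the lower Il23r and Rora of the gamma-delta gate was not tested.

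In single gamma-delta cells Il23r was found together with Rora more often than apart from it. After thinning, Rora was found in 86.2% (68.3 to 96.1) of 29 WT cells with Il23r and 35.7% (21.6 to 52.0) of 42 without, and in 77.8% (52.4 to 93.6) of 18 and 27.1% (15.3 to 41.8) of 48 in Stat4fl/flCD11cCre. Il17a was found in 31.0% (15.3 to 50.8) against 7.14% (1.5 to 19.5) in WT and 38.9% (17.3 to 64.3) against 16.7% (7.48 to 30.2) in Stat4fl/flCD11cCre. The Rora intervals did not overlap in either library, and the Il17a intervals did. Il17re was found in 9 of 29 WT cells with Il23r and 4 of 42 without, and in 2 of 18 and 2 of 48 in Stat4fl/flCD11cCre, with overlapping intervals. Of the WT gamma-delta cells with Il17a, 9 of 12 held Il23r, and 7 of 15 did in Stat4fl/flCD11cCre. The type 1 receptor chain Il12rb2 was found in 0 of 29 and 0 of 18 gamma-delta cells with Il23r and in 4 of 42 and 7 of 48 without, in WT and Stat4fl/flCD11cCre. The Il12rb2 intervals overlapped in both libraries, so these counts do not set the groups apart.

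In WT CD4 cells Il17a was found in 26.8% (14.2 to 42.9) of 41 cells with Il23r and 3.85% (2.61 to 5.45) of 780 without. In Stat4fl/flCD11cCre the shares were 14.6% (5.57 to 29.2) of 41 and 9.57% (6.92 to 12.8) of 418, with overlapping intervals. Of the CD4 cells with Il17a, 30 of 41 in WT and 40 of 46 in Stat4fl/flCD11cCre showed no Il23r UMI, though a cell at this depth can express the gene without showing it. Without thinning, 34.1% of WT and 31.2% of Stat4fl/flCD11cCre CD4 cells with Il23r held Il17a. The gap between the libraries in the thinned shares was thus small at full depth, and the overlap of intervals given for Stat4fl/flCD11cCre holds for the thinned shares only. Il1r1, the IL-1 receptor that supports Th17 cells, was found in 53.7% (37.4 to 69.3) against 18.3% (15.7 to 21.2) in WT and in 29.3% (16.1 to 45.5) against 17.5% (13.9 to 21.5) in Stat4fl/flCD11cCre. The type 1 factor Tbx21 was found in 2 of 41 WT and 1 of 41 Stat4fl/flCD11cCre CD4 cells with Il23r, beside 15.3% and 10.8% of those without, with overlapping intervals. Csf2, which encodes GM-CSF, was found in 0 of 41 and 5 of 41 cells with Il23r and in 8.97% and 7.66% of those without, with overlapping intervals. Ifng was found in 17.1% and 14.6% of CD4 cells with Il23r and in 26.0% and 18.4% of those without, with overlapping intervals.

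**Figure D5:**
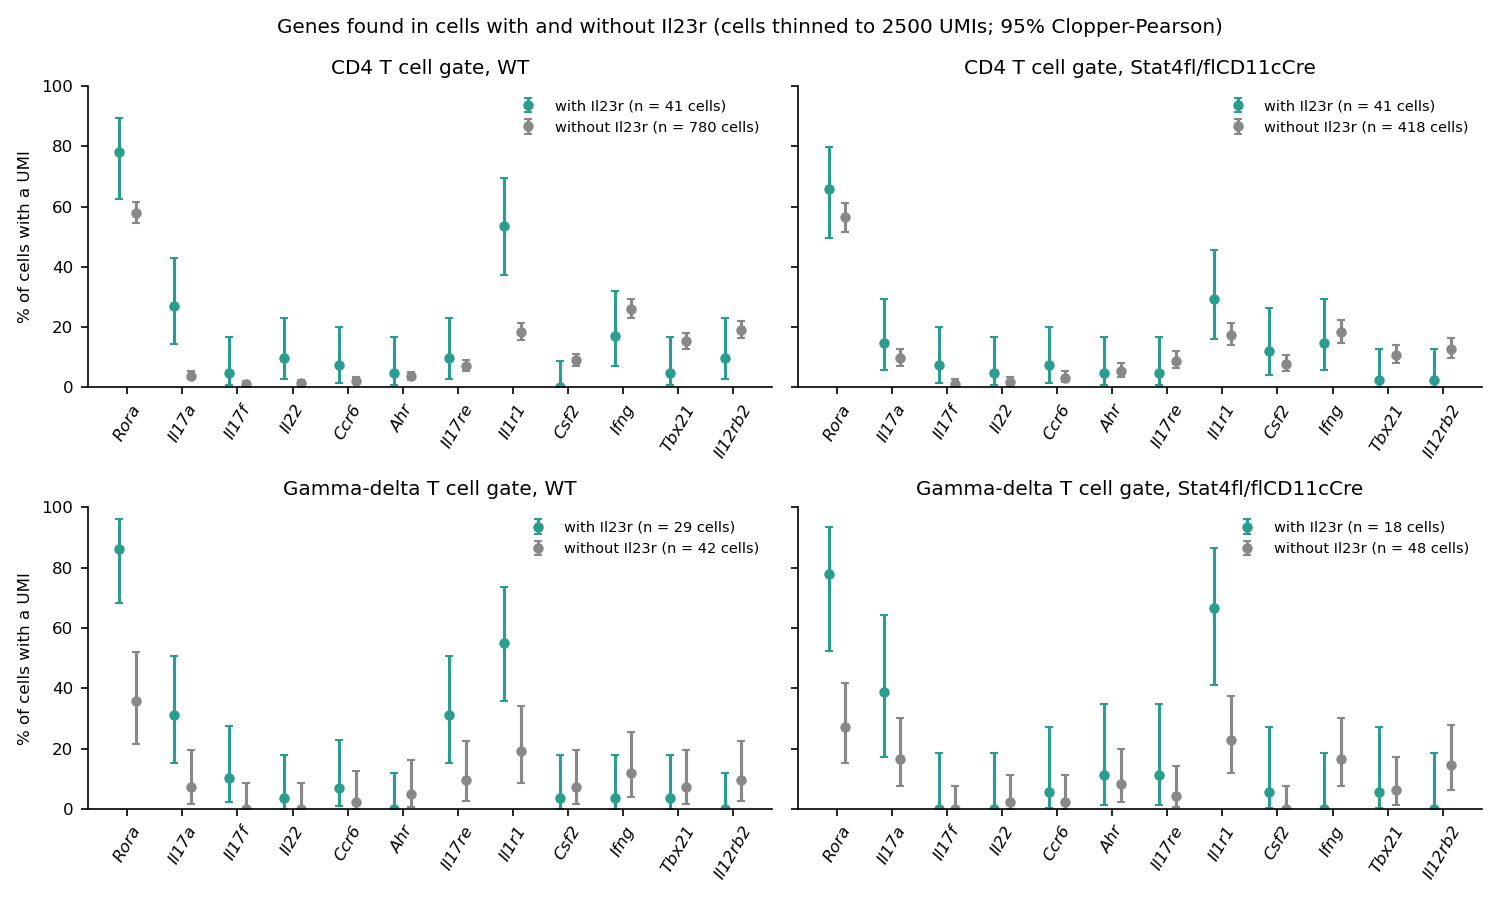
Share of cells with a UMI of each gene among cells with (green) and without (grey) Il23r, in the CD4 (top) and gamma-delta (bottom) gates of each library, after thinning to 2500 UMIs, with 95% Clopper-Pearson intervals. Il17a is found in 26.8% of WT CD4 cells with Il23r and 3.85% of those without, and Rora in 86.2% and 35.7% of WT gamma-delta cells.

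The cytokines shared cells in part. Of the CD4 cells with Il17f, 5 of 11 in WT and 3 of 8 in Stat4fl/flCD11cCre held Il17a, and of those with Il17a 12.2% and 6.52% held Il17f. Of the CD4 cells with Il22, 4 of 14 and 5 of 9 held Il17a. Ccr6 was found in 9.76% (2.72 to 23.1) of WT and 10.9% (3.62 to 23.6) of Stat4fl/flCD11cCre CD4 cells with Il17a, against 2.05% and 2.66% of those without. At least 2 of the 7 members other than Rora were found together in 3.90% (2.68 to 5.46) of WT and 7.41% (5.18 to 10.2) of Stat4fl/flCD11cCre CD4 cells. In gamma-delta cells it was 25.4% (15.8 to 37.1) and 16.7% (8.62 to 27.9), in NK cells 0 of 286 and 0 of 219, and in microglia 0.0426% and 0.0165%. The share was highest in the gamma-delta gate of both libraries. In WT its interval stood clear of those of CD4, regulatory T and unresolved T cells. In Stat4fl/flCD11cCre it overlapped that of CD4 cells. It also overlapped those of regulatory T cells, at 6.74% (2.51 to 14.1), and unresolved T cells, at 6.51% (3.96 to 9.97).

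The other genes of the pathway moved little in CD4 cells: of 25 measured among 27 listed, 1 was higher (Ccl20, the ligand of Ccr6) and 1 lower (Cd163l1, whose interval spans 0), with a median log2 ratio of -0.0027. Over all genes measured in CD4 cells 4.89% were called higher and 6.2% lower. Ccl20 was 7.98 CPM in WT and 25.1 in Stat4fl/flCD11cCre, from 5 and 4 cells (log2 1.65, 1.12 to 2.20), with 18 of 45 and 52 of 92 UMIs in the richest cell and a log2 ratio of 1.19 without it. Csf2 was 158 and 163 CPM, Il12rb1 14.7 and 11.7, and Tmem176a 211 and 283 (log2 0.43), all short of the threshold. Of 7 measured genes of a type 1 list of 8, 3 were lower in CD4 cells and 0 higher: Il12rb2 (log2 -0.75, -0.99 to -0.52), Ccl5 (-0.60, -0.70 to -0.50) and Tbx21 (-0.64, -0.91 to -0.38). Ifng, the type 1 cytokine, was 385 CPM (369 to 402) and 287 (270 to 304), short of the threshold (log2 -0.43). Il17a and Il22, each held largely by few cells, were thus higher in a gate where the type 1 list had a median of -0.43.

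The type 1 list turned to higher in gamma-delta cells, and the pathway list had lower calls alone. Over all genes measured in this gate 14.1% were called higher and 11.0% lower. Of 20 measured pathway genes 0 were higher and 4 lower: Zbtb16, the factor of innate-like T cells (log2 -1.05, -1.64 to -0.47), Il18r1 (-0.80, -1.14 to -0.46), Sox13 (-1.37, -2.70 to -0.16) and Il12rb1, whose interval spans 0 (-0.68, -2.02 to 0.63). Of the 8 type 1 genes 5 were higher and 0 lower, among them Eomes (log2 1.20, 0.17 to 2.34), and Ifng was 42.7 CPM and 75.9 (log2 0.83, -0.06 to 1.78; 0.46 without the richest cells, short of the threshold). Of the 5, Eomes and Il12rb2 had intervals clear of 0 and Ifng, Tbx21 and Cxcr3 did not. Csf2 had 15 UMIs in WT and 2 in Stat4fl/flCD11cCre. Cd163l1 was 621 CPM and 454 (log2 -0.45), and Ccl5 4044 and 4889 (log2 0.27), both short of the threshold.

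In regulatory T cells, where 4 of 6 members were higher, 1 of 20 pathway genes was higher and 1 lower. Of all genes measured there, 6.71% were called higher and 10.4% lower. Tyk2 (log2 0.92, 0.17 to 1.68) was higher, and Csf2 was lower, from 146 CPM to 3.45, with 90 of its 199 WT UMIs in 1 cell. Ifng was lower, from 178 to 16.1 CPM (log2 -3.46, -4.36 to -2.69), and Il12rb2 from 41.1 to 19.6 (log2 -1.07), with Tbx21, whose interval spans 0, the third of 3 lower among 7 type 1 genes. Il12rb1, Ccl5 and Il18r1 had log2 ratios of -0.52, -0.44 and -0.43. In CD8 cells, 5 of 20 pathway genes were higher and 0 lower, beside 8.79% and 7.02% of all genes measured there. They were Maf (log2 1.04, 0.55 to 1.52), Tmem176a (0.86), Tmem176b (0.74), Zbtb16 (1.29, 0.23 to 2.35) and Il1r1 (0.61, -0.10 to 1.30). The calls of Zbtb16, with 9 of its 17 Stat4fl/flCD11cCre UMIs in 1 cell, and of Il1r1 were lost without the richest cells (log2 0.48 and 0.40). Ifng was lower in CD8 cells, from 193 to 54.6 CPM (log2 -1.82), with 264 of 629 WT UMIs in 1 cell. Cxcr6 (log2 -0.48) and Il12rb1 (-0.10) were not called in CD8 cells, and Csf2 had under 20 UMIs. In NK cells Jak2 (log2 0.68, 0.27 to 1.09) and Zbtb16 (0.96, 0.08 to 1.89) were higher and Il12rb1 lower (-0.66, -1.71 to 0.34) among 16 pathway genes, and none of the 8 type 1 genes was called. Of all genes measured in NK cells, 7.79% were called higher and 6.01% lower. NK cells held 9 Csf2 UMIs in each library. Their Ccl5 (log2 0.48), Ifng (0.41), Tbx21 (0.36), Il18rap (0.32) and Stat3 (0.30) were short of the threshold.

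Across the 1983 WT and 1042 Stat4fl/flCD11cCre cells of the 5 gates, the genes most like Il23r by Pearson correlation of log counts, among 9568 genes, were Blk (0.518 in WT and 0.443 in Stat4fl/flCD11cCre), Il1r1 (0.459 and 0.443), Abi3bp (0.488 and 0.419) and Cd163l1 (0.473 and 0.417), followed by Pde5a, Serpinb1a, Tmem176a and Tmem176b. Cells of a library share its depth and free RNA, so these values are descriptions. Among the members, Il17a ranked 13th, Rora 20th, Il17re 35th, Ccr6 97th and Ahr 2368th by likeness to Il23r. Those most like Il17a were Il1r1 (0.319 and 0.340) and Il23r (0.305 and 0.297), followed by Ramp1, Tnfsf11, Tmem176b, Ablim3, Furin and Prelid2. Of these 5 members Ahr was thus the least like Il23r, and Ifng, at -0.074 and -0.064, was near the bottom of the ranking.

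Gamma-delta cells were also grouped by the constant genes of the gamma chain found in them. Il23r was found, unthinned, in 50% (33.4 to 66.6) of 38 WT cells with Tcrg-C4 and 55.6% (35.3 to 74.5) of 27 with Tcrg-C1 or Tcrg-C2 only. In Stat4fl/flCD11cCre the shares were 41.7% (25.5 to 59.2) of 36 and 43.5% (23.2 to 65.5) of 23. Il17a was found in 21.1% (9.55 to 37.3) and 22.2% (8.62 to 42.3) in WT and in 25.0% (12.1 to 42.2) and 47.8% (26.8 to 69.4) in Stat4fl/flCD11cCre. All of these intervals overlapped within a library. The cells with Tcrg-C4 were not a class with that gene alone. Tcrg-C1 was found in 48 of all 74 WT and 45 of all 67 Stat4fl/flCD11cCre gamma-delta cells, more than the group without Tcrg-C4 holds. The grouping could therefore not tell the gamma chains apart, and no conclusion is drawn on which of them goes with Il23r or Il17a.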

How the data were processed

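Single-cell 3′ RNA libraries were made with 10x Genomics Chromium, per the labels' protocols, from sorted cells pooled within each genotype. The authors deposited unnormalized UMI counts for every gene in every barcode, written by Cell Ranger 7.0.0 per the submitters' processing notes, which also name mm10, bcl2fastq, STAR, Seurat and R 4.3.0 without their roles. Not given in the sources used here are the annotation release, the use of strand or introns, and whether doublets had been removed. The matrices also hold 5 antibody tags, left out of all totals. The libraries held 122975017 gene UMIs in 13820 barcodes (WT) and 120221740 in 12534 (Stat4fl/flCD11cCre), and the genotype in the labels gave the groups.

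Cells needed at least 500 genes, at least 1000 UMIs and less than 10% of UMIs from mitochondrial genes, and were gated by marker genes in Python 3.11.15 (numpy 2.4.6, scipy 1.17.1, pandas 2.3.3). T cells needed 2 or more UMIs of CD3 genes, gamma-delta cells 2 or more of Trdc and NK cells 2 or more of Ncr1, Klrb1c, Klre1 and Klra8. Comparison gates needed 3 or more UMIs of their markers and no CD3 gene. No doublet caller was used in the main values beside the removal of barcodes with other-lineage UMIs; leaving out the highest 10% of Scrublet scores (scanpy 1.11.5) was an alternative. UMIs were summed per gate and scaled to that gate's total (CPM), with exact Poisson intervals, exact conditional binomial intervals for ratios and Clopper-Pearson intervals for shares, at the 95% level. For shares, each cell was thinned to 2500 UMIs without replacement, and 9.75% of WT and 6.23% of Stat4fl/flCD11cCre kept cells were shallower and left out. For shares of 0, the limit is what 3 counts of the total would give. UMIs of 1 cell are not independent of each other, so intervals of cytokines that lie in few cells are too narrow, and the richest cell is given beside them. The ratio step was tested on simulated data. Promoters came from RefSeq (GRCm38.p6) and positions from GENCODE M21 (GRCm38, the same build as mm10).

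The members, gates, lists and alternatives were chosen with earlier results of these data known. All members are named in every gate. Of the pathway and type 1 lists, up to 6 genes per gate with 20 or more UMIs are named by how far the nearer interval bound lies from 1, and always Csf2, Ifng and Il12rb1; Il1r1, Tbx21, Cd163l1 and the other called genes named, and those shown in co-expression, were added after their values were seen. Of the pathway list, 1 gene is not reported here. The 8 genes most like Il23r and Il17a were ranked by the lower correlation of the 2 libraries among genes found in 30 or more cells of each, without mitochondrial, ribosomal protein, immunoglobulin and T cell receptor genes.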

Additional observations from a re-analysis of the deposited data

Results flagged for a closer look

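Il22 moved in opposite directions in 2 gates. The log2 ratio of Stat4fl/flCD11cCre over WT was 1.70 in CD4 T cells and -6.20 in gamma-delta T cells, and the difference was not tested. In gamma-delta cells all WT molecules lay in 1 cell. In CD4 cells most Stat4fl/flCD11cCre molecules lay in the cells with 262 and 206 UMIs.

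Ccr6 gave a signal in cells outside the lymphocyte comparison: it was found in 1.88% of microglia-gate cells in WT and 2.18% in Stat4fl/flCD11cCre, beside 0 of 2171 and 0 of 1749 cells of the macrophage or monocyte gate.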

How the results depend on the processing

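Of 222 alternative values for 23 results that answer a comparison, 203 stayed close to the main value, 19 moved and 0 reversed; of 826 values for 90 single genes and shares, 771 stayed close, 55 moved and 0 reversed, where reversed means that a value called higher or lower changed sign. Il17f in CD4 cells, not called at first, changed sign from 0.18 to -1.16 without the richest cells and is counted as moved. With other-lineage barcodes kept, the log2 ratio of Il17a in CD4 cells was 2.06, that of Il22 1.40, and that of Rora in gamma-delta cells -0.60. With every cell weighted equally, Il17a in gamma-delta cells was 1.76, Il22 in CD4 cells 1.11 and Rora in gamma-delta cells -0.55, and 5 members were called higher in CD4 cells in place of 3. With 1 UMI of Trdc defining gamma-delta cells, Il17a was 0.42 there and 0 members were called higher. At 2-fold, 0 members were higher and 2 lower in gamma-delta cells, in place of 1 and 4. Leaving out the richest cell of each library, an alternative chosen after seeing the data, gave 1.68 for Il17a in CD4 cells and 1 member lower there, Il17f. Without thinning, Il23r was found in 9.44% and 16.5% of CD4 cells, Il17a in 7.71% of WT CD4 cells, and Il17a in 31.2% of Stat4fl/flCD11cCre CD4 cells with Il23r; thinned to 1500 UMIs, Il23r was found in 3.48% and 4.52%. Leaving out cells with over 1% of other cells' markers was also chosen after seeing the data. Shares move with the depth kept, by construction; the cause of the other moves was not tested. No paired analysis was possible because each genotype has 1 library, and no replicate could be left out. The number of cells limits the gamma-delta values most, with 74 and 67 cells.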

Other observations

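The cells richest in type 17 cytokines were few and did not all fall in 1 gate. The Stat4fl/flCD11cCre CD4 cell with 988 Il17a UMIs also held 144 of Il17f, 206 of Il22 and 2 of Il23r among its 8888 UMIs. The WT CD4 cell with 311 Il17a UMIs held 133 of Il17f, 41 of Il22 and 0 of Il23r among 6628. The richest Il22 cell of the Stat4fl/flCD11cCre CD4 gate held 262 UMIs of it with 111 of Il17a and 0 of Il17f among 24061, and that of WT held 112 with 0 of Il17a and 0 of Il17f among 6736. A Stat4fl/flCD11cCre cell outside every gate held 107 UMIs of Il17a and 37 of Il17f with 1 UMI of CD3 genes.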
